A study of Mus musculus with 2 samples.

Results

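The smooth muscle contractile genes examined here are 10 genes: Acta2, Actg2, Myh11, Myl9, Cnn1, Tagln, Tpm1, Tpm2, Smtn and Des. They were found on both arrays by the gene name printed for each non-control probe, which gave 16 probes and 34 spots, of 22803 named genes and 39429 probes in all. This rule used no measured value, but the 10 genes were chosen with earlier results of these data known. Gene expression was measured in the liver of C57BL/6 mice on 2 Agilent 2-colour arrays, 1 for wild-type and 1 for AID transgenic mice. On each array the red dye (Cy5) carried RNA from mice that had drunk thioacetamide in their water for 6 months, and the green dye (Cy3) carried liver RNA of untreated mice with the same genotype. Thioacetamide is a liver poison used to produce fibrosis in rodents. The 4 livers are therefore wild-type untreated, wild-type treated, AID transgenic untreated and AID transgenic treated, all C57BL/6. The sources used here do not give the age and sex of the mice, the promoter that drives the transgene or whether RNA was pooled.

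In the liver, smooth muscle cells of vessel walls carry a contractile apparatus of actin and myosin filaments, and hepatic stellate cells and portal fibroblasts build a similar one when injury turns them into myofibroblasts. Contraction starts when the light chain of smooth muscle myosin is phosphorylated, and tropomyosins, calponin and other thin filament proteins set how actin and myosin meet. Transcription of many of these genes is driven by serum response factor (SRF), which binds DNA at CArG boxes and acts with myocardin or its relatives.

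With 1 array per genotype there was no replicate and no dye swap, so there are no p-values, and precision is limited by the number of arrays. Treated RNA was always in Cy5 and untreated RNA in Cy3. An effect of treatment and one of dye on a probe therefore cannot be told apart within an array. Errors after ± come from the scanner's own error model for the spots and do not describe a spread between mice. For a gene with several probes they were combined as if the probes were independent. Between 53.9% and 68.8% of 43020 non-control spots were well above background in a channel. Each of the 14 hepatocyte markers listed was well above background in all 4 livers, as the label of the tissue says. The treated wild-type liver stood apart from the other 3 in sex-linked transcripts. Xist was at least 6.18-fold higher there than in the untreated wild-type liver, and the Y-linked Ddx3y and Eif2s3y were at least 17.6-fold and at least 32.1-fold lower. These values accompany the comparisons that use that liver, and their part in the results was not tested. In bulk liver RNA, fewer cells of a type and less RNA per cell cannot be told apart.

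Of the 16 probes, 4 are shown, 2 for each tropomyosin gene, because the values of these genes below are also read probe by probe. They are 60-base probes, given with their mm9 positions as the array files have them, and both genes are read on the minus strand.
Tpm1 probe A_55_P2032192, chr9:66871166-66871225: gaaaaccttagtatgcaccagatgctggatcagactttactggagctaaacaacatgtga
Tpm1 probe A_55_P2078680, chr9:66880274-66880333: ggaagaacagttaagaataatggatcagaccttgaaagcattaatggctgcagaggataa
Tpm2 probe A_55_P2121408, chr4:43532262-43532321: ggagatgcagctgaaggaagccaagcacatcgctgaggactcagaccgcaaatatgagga
Tpm2 probe A_52_P315976, chr4:43531276-43531335: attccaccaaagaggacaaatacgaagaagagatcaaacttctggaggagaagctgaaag
Also shown are the promoters of the 3 members that were at least 2-fold higher in untreated AID transgenic than in untreated wild-type liver, taken from RefSeq on GRCm38.p6. Each covers the 250 bases before the annotated start, 5′ to 3′, and capitals mark CArG boxes, searched on both strands with up to 1 G or C among their 6 central bases.
Acta2 promoter, chr19:34255374-34255623, minus strand: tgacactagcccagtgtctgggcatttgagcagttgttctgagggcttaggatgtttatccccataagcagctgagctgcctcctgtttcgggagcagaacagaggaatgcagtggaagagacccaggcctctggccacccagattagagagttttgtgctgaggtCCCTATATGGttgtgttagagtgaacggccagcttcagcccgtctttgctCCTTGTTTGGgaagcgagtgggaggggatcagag
Myl9 promoter, chr2:156775214-156775463, plus strand: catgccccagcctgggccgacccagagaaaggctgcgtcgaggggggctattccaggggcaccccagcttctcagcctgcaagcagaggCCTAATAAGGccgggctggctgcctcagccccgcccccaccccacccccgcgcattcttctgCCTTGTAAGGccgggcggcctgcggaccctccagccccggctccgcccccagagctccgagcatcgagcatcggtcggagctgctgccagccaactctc
Cnn1 promoter, chr9:22099003-22099252, plus strand: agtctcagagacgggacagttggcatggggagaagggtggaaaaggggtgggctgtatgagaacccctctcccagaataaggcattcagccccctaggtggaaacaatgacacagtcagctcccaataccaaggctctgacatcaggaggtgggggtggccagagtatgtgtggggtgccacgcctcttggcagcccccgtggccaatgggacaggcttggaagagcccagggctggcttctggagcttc
The table had promoters of 7 members (Acta2, Cnn1, Des, Myl9, Smtn, Tpm1, Tpm2). A CArG box with only A and T at its centre was found in 1 of these 7, the Myl9 promoter, at -161 to -152 from the start, against 1.63% of 32851 mouse promoters of the same 300-base length. With 1 G or C allowed, 2 of the 7 held a box, against 9.98% of all promoters. The boxes added were another Myl9 box at -99 to -90 and both Acta2 boxes, at -84 to -75 and at -34 to -25. The MCAT element, CATTCC on either strand, was in 3 of the 7 (Acta2, Tpm1 and Smtn), against 14.7% of all promoters, and it does not overlap the boxes. The Cnn1 window held neither motif. A match is a description of letters and not a measured binding site.

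Across the 4 livers, the contractile genes were highest in the untreated AID transgenic liver. It had the highest level of the 4 for 7 of the 10 genes (Acta2, Actg2, Myh11, Myl9, Cnn1, Tagln and Des), whereas 19.5% of 17103 genes were highest there. The treated AID transgenic liver was the lowest of the 4 for 7 of the 10 (Acta2, Actg2, Myl9, Cnn1, Tagln, Tpm2 and Des), against 21.9% of the 17103. The untreated and treated livers of the wild-type mice lay between these for Acta2, Actg2, Myl9, Cnn1, Tagln and Des. Tpm1, Tpm2 and Smtn followed other orders. Levels are normalized log2 intensities and are compared between livers for 1 gene, never between genes. An order over all 4 livers sets Cy3 against Cy5 levels, so it also carries any effect of dye. The Des levels lay close to background within 0.31 log2 units, and its spots overlapped between the genotypes.

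**Figure D1:**
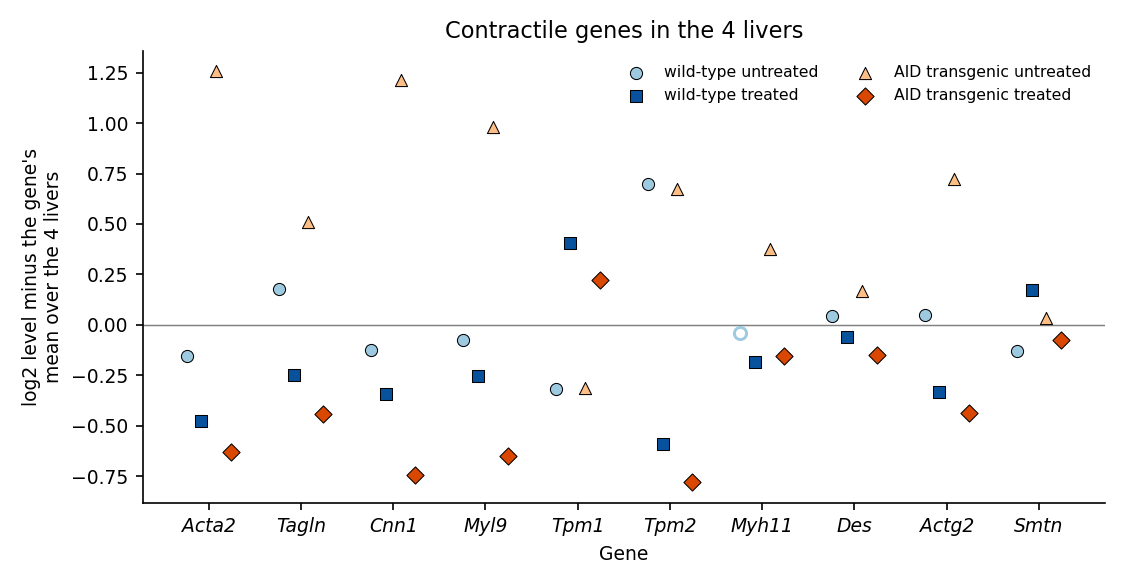
Normalized log2 level of each of the 10 contractile genes (horizontal axis) in each of the 4 livers, minus that gene's mean over the 4 (vertical axis, log2 units); the open symbol is Myh11 in the untreated wild-type liver, with a signal not well above background. The untreated AID transgenic liver is the highest point for 7 genes, with Acta2 at 1.26 and Cnn1 at 1.22 above their means, while Tpm1 and Tpm2 separate the treated from the untreated livers.

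Of the actins, Acta2 encodes alpha smooth muscle actin, the usual marker of myofibroblasts. Its log2 level was 8.68 in the untreated and 8.36 in the treated wild-type liver, 10.09 in the untreated and 8.20 in the treated AID transgenic liver. The untreated AID transgenic liver thus stood alone, and the other 3 lay close together. Acta2 has 10 spots on each array, of which 1 was left out as an outlier on the AID transgenic array. Over these spots the SD of the level was between 0.08 and 0.14 in the 4 livers, and the lowest spot of the untreated AID transgenic liver, at 9.89, lay above the highest spot of any other liver, at 8.82. Spots of 1 array are technical repeats and do not stand for mice.

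Actg2 encodes gamma smooth muscle actin, the actin of visceral smooth muscle. Levels on the log2 scale were 6.98 in the untreated and 6.60 in the treated wild-type liver, 7.65 in the untreated and 6.49 in the treated AID transgenic liver. The order of the 4 livers was that of Acta2, over a narrower range of 1.16 against 1.89 log2 units. The probes of both genes shared no run of bases longer than 6. Actg2 was dim in the treated livers. Its log2 ratio in AID transgenic mice, -1.16 ± 0.32, ranged from -2.45 to -0.98 over the settings tried.

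Of the myosin chains, Myl9 encodes the regulatory light chain that is phosphorylated at the start of contraction. The log2 level was 9.77 in the untreated and 9.59 in the treated wild-type liver, 10.82 in the untreated and 9.19 in the treated AID transgenic liver. It was a bright probe, and the untreated AID transgenic liver stood above the other 3 as it did for Acta2. Myh11 encodes the smooth muscle myosin heavy chain, the most restricted marker of mature smooth muscle among the members. It stood at a log2 level of 6.40 in the untreated wild-type liver, a signal not well above background, and at 6.26 in the treated wild-type liver, 6.82 in the untreated and 6.28 in the treated AID transgenic liver. Its untreated AID transgenic level was at least 1.33-fold that of the untreated wild-type liver. Its log2 ratio of treated over untreated was -0.14 ± 0.52 in wild-type mice, within its error of 0, and -0.53 ± 0.40 in AID transgenic mice.

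Cnn1 encodes calponin, which binds actin and slows the myosin motor. Log2 levels of Cnn1 were 7.24 in the untreated and 7.03 in the treated wild-type liver, 8.59 in the untreated and 6.63 in the treated AID transgenic liver. It had the widest range of the 10 genes, 1.96 log2 units, and again the untreated AID transgenic liver stood alone. Tagln encodes transgelin (SM22), an actin-bundling protein of smooth muscle and an early sign of the contractile programme. Tagln stood at a log2 level of 11.47 in the untreated and 11.04 in the treated wild-type liver, 11.80 in the untreated and 10.85 in the treated AID transgenic liver. Its order was that of Acta2, but the untreated AID transgenic liver stood only 0.33 log2 units above the untreated wild-type one.

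The tropomyosins wind along actin and gate its contact with myosin. Tpm2 log2 levels were 8.38 in the untreated and 7.10 in the treated wild-type liver, 8.36 in the untreated and 6.91 in the treated AID transgenic liver. For this gene both treated livers were low and both untreated livers were high, with no gap between the untreated ones. Treated livers were read in Cy5 and untreated ones in Cy3, so treatment and dye cannot be told apart here. Its log2 ratio of treated over untreated was -1.29 ± 0.19 in wild-type and -1.45 ± 0.21 in AID transgenic mice, and its probes A_52_P315976 and A_55_P2121408 gave -1.33 and -1.24 in the former and -1.52 and -1.39 in the latter. With median centring in place of loess the wild-type value was -0.87, under 2-fold, when all genes had a median of 0.35.

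Tpm1 had log2 levels of 8.40 in the untreated and 9.13 in the treated wild-type liver, 8.41 in the untreated and 8.94 in the treated AID transgenic liver. As a mean over its 5 probes the treated livers were the high ones, opposite to Tpm2, and the gene did not reach 2-fold on either array. The mean hides a split between probes. Of the 5, 4 had log2 ratios from 0.97 to 1.21 in wild-type and from 0.60 to 0.85 in AID transgenic mice. The fifth, A_55_P2187053 at chr9:66872131-66872190 (mm9), had -0.77 ± 0.22 and -0.45 ± 0.21. Its array annotation shares no listed transcript with the other 4 probes, though each of those also lists an accession of its own. Whether transcript forms differ in their ratios was not tested. It was the brightest of the 5, so that taking the brightest probe turns the sign of Tpm1 on both arrays. The SD between the 5 probes was 0.84 in wild-type and 0.56 in AID transgenic mice, where the median SD over 3120 genes with several probes was 0.14 on either array. Probes A_55_P2187038 and A_55_P2187043 share a run of 46 bases and are not independent reads of the gene.

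**Figure D2:**
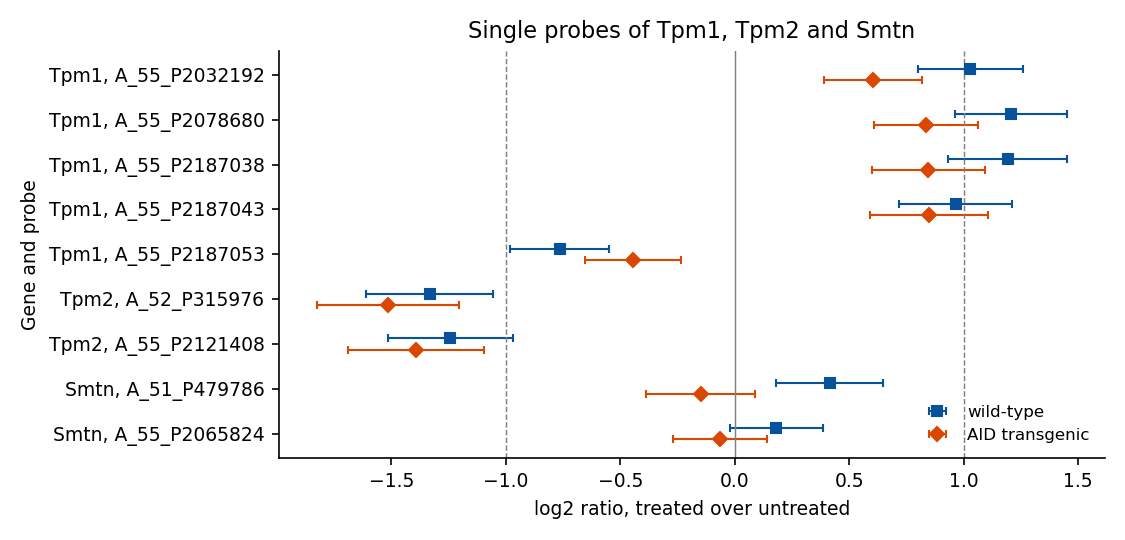
Log2 ratio of treated over untreated liver (horizontal axis) for each probe of the 3 contractile genes with more than 1 probe (vertical axis), in wild-type (squares) and AID transgenic (diamonds) mice; bars are the scanner's error and dashed lines mark 2-fold. A_55_P2187053 is the only Tpm1 probe below 0, at -0.77 and -0.45, while both Tpm2 probes lie past the 2-fold line in both genotypes.

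Smtn encodes smoothelin, a protein of contractile smooth muscle filaments. Log2 levels of Smtn were 8.14 in the untreated and 8.44 in the treated wild-type liver, 8.30 in the untreated and 8.20 in the treated AID transgenic liver. All 4 levels lay within 0.30 log2 units, which was the narrowest range of the 10 genes. Des encodes desmin, the intermediate filament protein of muscle cells and of quiescent as well as activated rodent stellate cells. Des stood at a log2 level of 6.59 in the untreated and 6.48 in the treated wild-type liver, 6.71 in the untreated and 6.40 in the treated AID transgenic liver. The order was that of Acta2 over a range of 0.31 log2 units, close to background. Its log2 ratio in AID transgenic mice was -0.31 ± 0.36, with an SD of 0.11 between 8 spots, and -1.15 with the scanner's processed signals, which likewise gave -1.78 for Myh11.

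The comparison of untreated livers asks whether the genotypes differed without the poison. In AID transgenic relative to wild-type liver, 3 of the 10 passed 2-fold upward and 0 downward, against 0.308% of 14295 genes higher and 0.294% lower. Acta2 had a log2 difference of 1.41, which is 2.66-fold, with an SD of 0.08 between 9 spots. Cnn1 had 1.34, or 2.54-fold, and Myl9 had 1.06, or 2.08-fold. The other 7 were under 2-fold, from -0.02 for Tpm2 to 0.67 for Actg2. The median of the 10 was 0.37, and that of all genes was near 0. Over 399 probes with 10 spots each, the median SD between spots in this comparison was 0.09. Without normalization between the arrays, Myl9 had 0.89 and 2 genes, Acta2 and Cnn1, were past 2-fold, when all genes had a median of -0.13 and 40 genes were called higher against 60 lower (44 and 42 otherwise). With the scanner's processed signals 5 of the 10 were past 2-fold.

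Both untreated livers had like levels of the Y-linked Ddx3y and Eif2s3y, with log2 differences of 0.10 and -0.06, so that the liver that stood apart in sex-linked transcripts takes no part in this comparison. Markers of portal fibroblasts and mesothelium were measured for 12 genes here, of which 0 were at 2-fold, with a median of 0.54 and Thy1 at 0.84. Their summed log2 level, over 17 genes, was 12.51 in the AID transgenic liver, with 11 genes well above background, and 11.95 in the wild-type liver, with 9. The matrix genes had a median of 0.28 over 14 genes, with 0 at 2-fold. They ran from -0.27 for Fn1 to 0.88 for Col1a1. Their summed log2 level, over 16 genes, was 15.77 in the AID transgenic and 15.94 in the wild-type liver. A sum gives bright genes the most weight, so it can differ in direction from the median. Stellate cell markers had a median of -0.06 over 19 genes, with 0 at 2-fold. Macrophage markers had a median of 0.03 over 14 genes, with 1 higher by 2-fold, Marco at 2.54. The part of these cells in the contractile gene levels was not tested. The 16 vascular smooth muscle and pericyte markers had a median of 0.12, with 0 at 2-fold, Notch3 at 0.29, Mcam at -0.04 and Cspg4 at 0.17. Of the 19 striated muscle markers, 4 (Myh2, Tnni2, Myh6 and Tnnt2) were well above background in all 4 livers, whereas the defining Ckm, Myh1 and Myh4 were so in none. Of 7 measured in this comparison 0 were at 2-fold, with a median of 0.01 and Tnnt2, the cardiac troponin T gene, at 0.71.

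In the treated livers the same comparison gave 0 of 10 genes at 2-fold in either direction, against 0.732% of 17075 genes higher and 0.755% lower. The values ran from -0.40 for Myl9 and Cnn1 to 0.03 for Myh11, with Acta2 at -0.15 and an SD of 0.06 between 9 spots. Of the 10, 9 lay below 0, where 51.0% of all genes did, and their median was -0.19. By its brightest probe Tpm1 had 0.16, and without normalization between arrays Myh11 had -0.02. Of the cell marker lists, 3 of 16 matrix genes were lower by 2-fold (median -0.40), as were 2 of 17 portal fibroblast and mesothelial markers (median -0.25) and 1 of 21 stellate cell markers, Lrat, at -1.56 (median -0.26). Macrophage markers were higher, 4 of 14 by 2-fold, with a median of 0.82. Among these, Marco had 2.43, where it had 2.54 in the untreated livers. The part of these cells in the contractile gene values was not tested. The treated wild-type liver enters here, in which the Y-linked transcripts were low. Without normalization between the arrays, the called genes were 98 higher and 167 lower in place of 125 and 129.

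**Figure D3:**
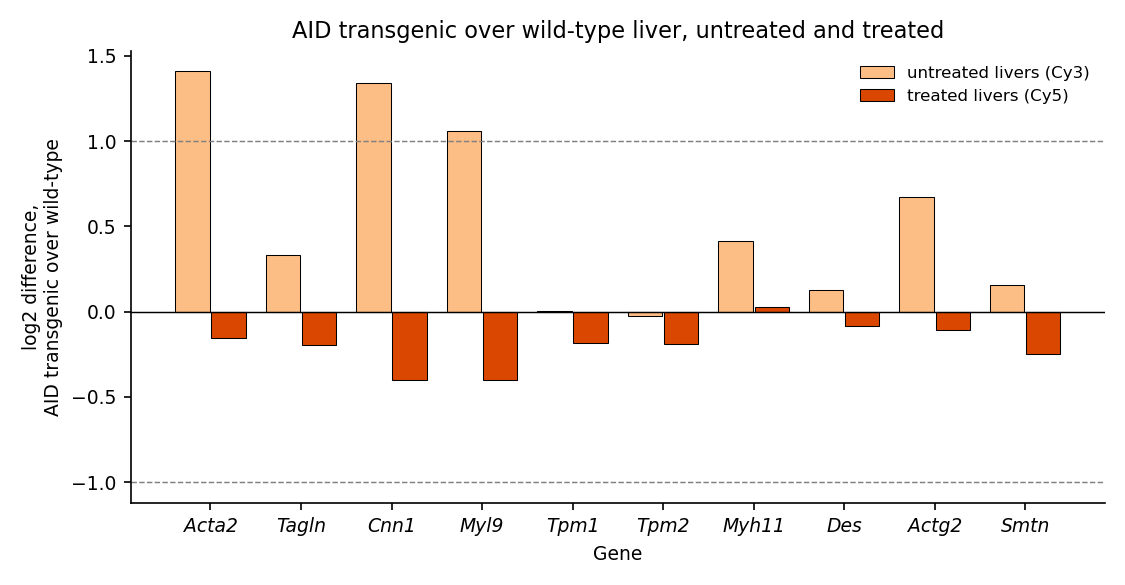
Log2 difference of AID transgenic over wild-type liver (vertical axis) for the 10 contractile genes (horizontal axis), in untreated livers (light bars) and treated livers (dark bars); dashed lines mark 2-fold. Acta2 (1.41), Cnn1 (1.34) and Myl9 (1.06) pass the upper line in the untreated livers, and no gene passes either line in the treated ones; each bar is 1 pair of livers with no error between mice.

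The next comparison sets treated against untreated liver within each genotype, where treatment and dye cannot be told apart. In wild-type mice 1 of the 10, Tpm2, fell by 2-fold or more and 0 rose, against 1.64% of 16661 genes lower and 1.86% higher. With median centring Tpm2 missed 2-fold and Tpm1 (1.26) passed it. The remaining 9 had log2 ratios from -0.43 ± 0.21 for Tagln to 0.73 ± 0.11 for Tpm1, with Acta2 at -0.32 ± 0.21, Actg2 at -0.38 ± 0.27, Cnn1 at -0.22 ± 0.23 and Myl9 at -0.18 ± 0.21. Cnn1 and Myl9 thus lay within their error of 0. The SD between the 5 Tpm1 probes was 0.84, wider than the error given for their mean. The Acta2 spots ran from -0.40 to -0.26, all below 0. The median of the 10 was -0.20 and that of all genes 0.03. Median centring turned the sign of Acta2 (0.24), Tagln (0.26), Cnn1 (0.01) and Myl9 (0.48), but it also moved the median of all genes to 0.35, and the median of the 10 genes stood 0.23 below it under either setting. It changed the called genes from 310 higher and 274 lower to 1729 and 102, and the scanner's processed signals changed them to 1574 and 605.

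Matrix genes gave other values on the same array. Among 16 of them 4 rose by 2-fold or more and 0 fell, against 1.86% and 1.64% of 16661 genes. They were the fibrillar collagen genes Col1a1 (1.60), Col3a1 (1.39) and Col1a2 (1.04), and Lum (1.10), which encodes a collagen-binding proteoglycan. The list had a median of 0.67 and ran from -0.47 for Ccn2 to 1.60 for Col1a1. Its summed log2 level, in which bright genes weigh most, was 15.92 in the treated and 15.94 in the untreated wild-type liver. Collagen and contractile genes are both markers of myofibroblasts, but bulk RNA does not show which cells carried the transcripts, so the 10 genes are called here by their role in contraction. The treated wild-type liver also differed from its control in sex-linked transcripts. Within this array that difference cannot be told apart from treatment or dye, and its part in either group of genes was not tested.

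In AID transgenic mice 5 of the 10 fell by 2-fold or more and 0 rose, against 0.947% of 16691 genes lower and 1.22% higher. They were Cnn1 at -1.96 ± 0.37 (3.89-fold lower), Acta2 at -1.89 ± 0.29 (3.70-fold), Myl9 at -1.63 ± 0.26 (3.10-fold), Tpm2 at -1.45 ± 0.21 (2.74-fold) and Actg2 at -1.16 ± 0.32 (2.23-fold). Tagln was just inside 2-fold at -0.95 ± 0.22. The Acta2 spots ran from -1.97 to -1.76, with an SD of 0.07 between 9 spots, and did not overlap those of the wild-type array. The median of the 10 was -1.06 and that of all genes 0.03. With median centring 3 genes were lower by 2-fold (Cnn1 -1.61, Acta2 -1.29 and Tpm2 -1.10) and Tpm1 was higher (1.02), while all genes had a median of 0.34 and called genes went from 203 higher and 158 lower to 1358 and 53. The scanner's processed signals gave 1518 and 474, and with them 7 of the 10 were lower, Cnn1 at -3.20, Actg2 at -2.45 and Tpm2 at -2.35. Neither liver of this array had Xist well above background, and Ddx3y had a log2 ratio of -0.11.

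**Figure D4:**
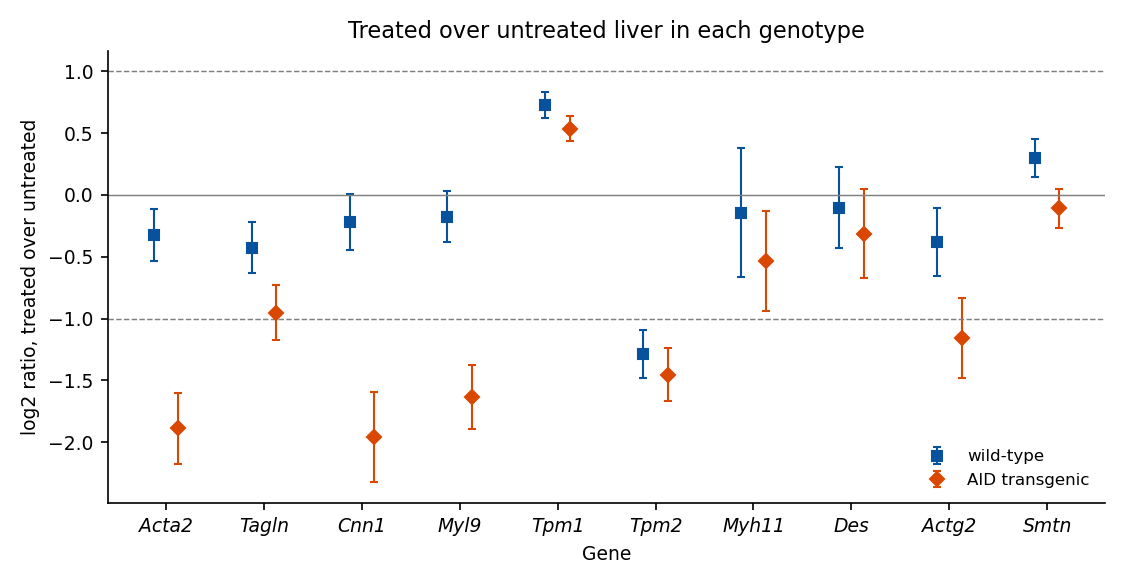
Log2 ratio of treated over untreated liver (vertical axis) for the 10 contractile genes (horizontal axis) in wild-type (squares) and AID transgenic (diamonds) mice; bars are the scanner's error and dashed lines mark 2-fold. Acta2, Cnn1, Myl9 and Actg2 pass the lower line in AID transgenic mice alone, Tpm2 passes it in both; with median centring in place of loess, Acta2, Tagln, Cnn1 and Myl9 lie above 0 in wild-type mice.

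The difference between the genotypes' log2 ratios, AID transgenic minus wild-type, was negative for all 10 genes, where 50.5% of 17103 genes were negative. The exception by setting was Tpm1, with 0.32 when read by its brightest probe. The difference was at least 2-fold lower for 3 and higher for 0, against 1.05% and 0.93% of the 17103. These were Cnn1 at -1.74 ± 0.43, Acta2 at -1.56 ± 0.36 and Myl9 at -1.46 ± 0.33, followed by Actg2 at -0.78 ± 0.42 and Tagln at -0.53 ± 0.30. Tpm2 (-0.17 ± 0.29) and Tpm1 (-0.19 ± 0.15, with an SD of 0.31 between its 5 probes) had the smallest differences. This difference equals the genotype difference in treated livers minus that in untreated livers. For Acta2 it was made of 1.41 in the untreated livers and -0.15 in the treated ones, for Cnn1 of 1.34 and -0.40, and for Myl9 of 1.06 and -0.40. The larger share thus lay in the untreated livers for these 3, while for Tpm2, with -0.02 and -0.19, and for Smtn, with 0.16 and -0.25, it lay in the treated ones. The 5 comparisons use the same 4 livers and are not independent of each other. The treated wild-type liver, which stood apart in sex-linked transcripts, enters this difference. Eif2s3y had 5.23, Ddx3y 4.49 and Xist -2.52 in it, each resting in part on a signal not well above background. Their part in the contractile gene values was not tested.

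Other lists had lower values in this difference too. The median of the 10 contractile genes was -0.47, and that of all genes was near 0. Of 16 matrix genes 6 were lower by 2-fold, with a median of -0.68 and Col1a1 at -2.03. Of 17 portal fibroblast and mesothelial markers 3 were lower, also with a median of -0.68, and of 21 stellate cell markers 2, Lrat (-1.33) and Dcn (-1.09), with a median of -0.40. Macrophage markers had a median of 0.77, with 2 of 14 higher. Whether the contractile genes moved with these cells was not tested. The treated wild-type liver, with its sex-linked transcripts, enters the values of these lists as well.

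Of 38 other genes of the contractile and cytoskeletal apparatus, 34 were measured in AID transgenic mice and 0 of them reached 2-fold on either array. Their median log2 ratio was 0.12 in wild-type and -0.02 in AID transgenic mice. Itga8, the integrin alpha subunit found on smooth muscle and stellate cells, had the largest value, 0.96 in wild-type and -0.25 in AID transgenic mice, and was the 1 gene of the list past 2-fold in the difference (-1.21). Also in AID transgenic mice, the actin genes of all cells had 0.32 (Actb) and 0.22 (Actg1), and the non-muscle myosin gene Myh9 had 0.64. Pdlim3 (-0.76), a linker of muscle Z lines, Ppp1r14a (-0.75), an inhibitor of myosin phosphatase, and Mustn1 (-0.67) had the lowest AID transgenic ratios of the list. These 6 genes were chosen after their values were seen. Their wild-type ratios were 0.07 (Actb), 0.62 (Actg1), 0.59 (Myh9), 0.02 (Pdlim3), -0.69 (Ppp1r14a) and -0.29 (Mustn1). Lmod1, Pln, Kcnmb1 and Casq2, all genes of mature muscle, were not well above background in any liver.

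Of 31 measured genes for SRF, its cofactors and the signalling that acts on them, 1 was at 2-fold, Smad7, the inhibitor of TGF-beta signalling, at 1.07 in AID transgenic mice and 0.89 in wild-type mice. Srf itself had 0.26 on both arrays, the cofactor genes Mrtfa and Mrtfb had 0.03 and 0.19 in AID transgenic mice, and Myocd was not well above background in any liver. The list ran from -0.45 to 0.89 in wild-type mice, with a median of 0.14, and from -0.49 to 1.07 in AID transgenic mice, with a median of 0.06. In the difference 0 were at 2-fold, and the lowest were the LIM domain protein genes Fhl2 (-0.84) and Csrp1 (-0.78), both chosen after their values were seen. The median of the list in the untreated comparison was 0.05.

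In the AID transgenic treatment ratio, though not in every comparison, the marker lists of cells that can carry these genes had medians nearer to 0 than the contractile genes. In AID transgenic mice the median log2 ratio was -0.18 over 16 vascular smooth muscle and pericyte markers, with 0 at 2-fold and Gja4, a gap junction gene of vessel walls, lowest at -0.72. It was -0.18 over 21 stellate cell markers, with 0 at 2-fold and the defining Lrat at -0.53 and Reln at -0.30. The 15 matrix genes had -0.29, with 1 lower by 2-fold, Ccn2, the connective tissue growth factor gene, at -1.15. The 14 portal fibroblast and mesothelial markers had -0.25 and 0 at 2-fold, with Thy1 at -0.46, Fbln2 at -0.24 and Fbln1 at -0.48. They ran from -0.96 for Mfap4 to 0.69 for Gas6. Their summed log2 level was 12.51 in the untreated and 12.80 in the treated AID transgenic liver, with 11 and 14 of 17 genes well above background. This sum gives bright genes the most weight and here differs in direction from the median. Macrophage markers moved the other way, 5 of 14 rising by 2-fold or more in AID transgenic mice, led by Cd5l at 1.48 and Ctss at 1.46, and their summed level was 15.75 in log2 units in the treated and 14.71 in the untreated liver. Hepatocyte markers had a median of -0.19, with 4 of 14 lower by 2-fold: Apoa1 (-1.84), an apolipoprotein gene, Cyp2e1 (-1.84), a cytochrome P450 gene, and Tat (-1.27) and Tdo2 (-1.07), genes of amino acid breakdown. In wild-type mice the hepatocyte markers had a median of -0.36, with 2 of 14 lower by 2-fold, Apoa1 (-1.79) and Tat (-1.15). Cyp2e1 had -0.92 and Tdo2 -0.81 there. Of 8 striated muscle markers 1 was lower in AID transgenic mice, Tnnt2 at -1.44. The part of any of these cells in the contractile gene values was not tested.

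**Figure D5:**
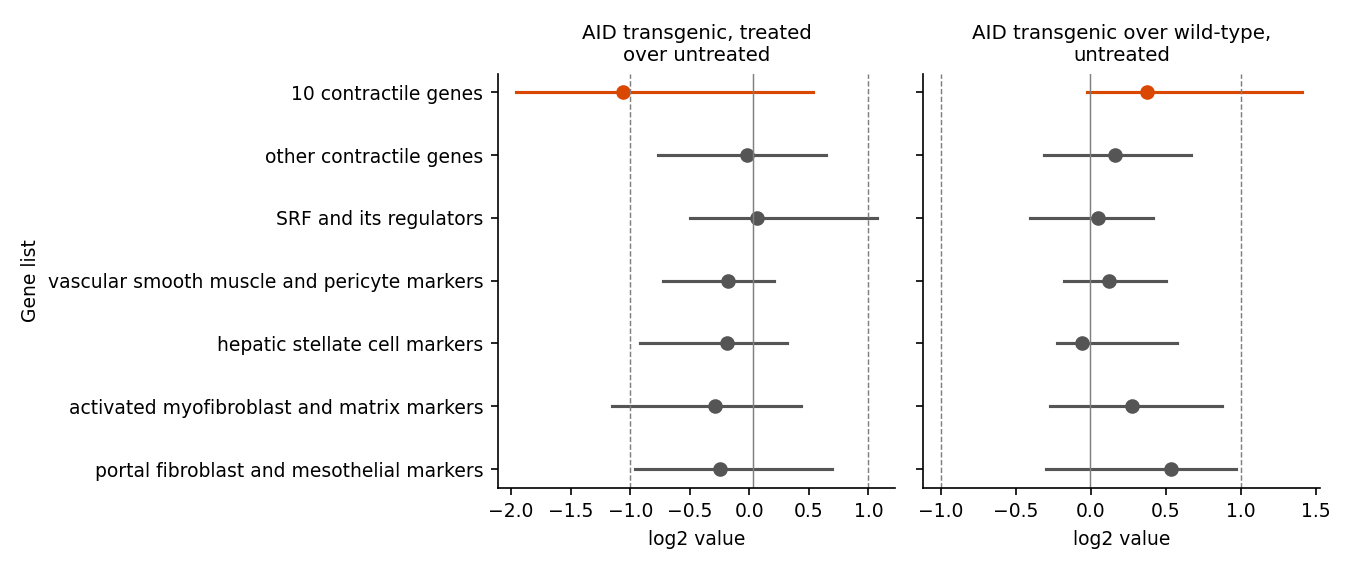
Median (point) and range (line) of log2 values of the 10 contractile genes and of 6 other gene lists (vertical axis), for treated over untreated AID transgenic liver (left) and for untreated AID transgenic over wild-type liver (right); the solid vertical line is the median of all genes and dashed lines mark 2-fold. The contractile genes have a median of -1.06 on the left, where the other lists lie between -0.29 and 0.06, and of 0.37 on the right, where portal fibroblast and mesothelial markers have 0.54.

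The genes whose pattern over the 4 livers was nearest to that of Acta2 were sought among 13454 genes well above background in all 4, by the Euclidean distance between levels centred on each gene's mean. Among the members, Cnn1 was at rank 2 (distance 0.18), Myl9 at 3 (0.36), Actg2 at 9 (0.62) and Tagln at 38 (0.87), while Tpm2 was at 175, Des at 1296, Smtn at 5947 and Tpm1 at 12797. Outside the members, and leaving out predicted genes and cDNA clones with no other name, the nearest included Rnu3b1 (0.08), Nr1i2 (0.39), Ddit4 (0.40), Cdc42ep5 (0.54), Tnnt2 (0.60), Leng9 (0.63) and Gsn (0.69), each read by 1 probe. Rnu3b1 is a copy of the U3 small nucleolar RNA, Nr1i2 encodes the xenobiotic receptor PXR of hepatocytes, and Gsn encodes gelsolin, which severs actin filaments. In AID transgenic mice their log2 ratios were -1.99, -1.44 and -1.59. Rnu3b1 has near-identical copies in the genome, so its probe may read several genes. With 4 livers, such nearness is a description of these samples.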

How the data were processed

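The authors deposited the scanner output of both arrays. Per the file headers, spot means, background medians and processed signals are intensity values, the log ratio is log10 of Cy5 over Cy3 processed signal, and its error is a score from the error model, in log10 units. The file headers name Feature Extraction 10.7.3.1, while the submitters' processing notes name 10.5.1.1. On both arrays the log10 ratio matched the authors' value table at each of 44397 features (tolerance 0, column medians 0).

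Mean signals were corrected by normexp (offset 50) and loess in limma 3.58.1 (R 4.3.3), with control spots and the 197 and 207 outlier spots left out, and by Aquantile between arrays for levels and genotype comparisons. The methods were tested on simulated data. An offset draws ratios of dim spots toward 0. Spots were averaged per probe and probes per gene (Python 3.11.15). Probes were named by accession (26055), symbol (3195) or synonym (930) from a RefSeq table of GRCm38.p6, and 9249 stayed unnamed. A gene was counted at 2-fold (log2 of 1) with a probe well above background in at least 1 channel that entered. A bound, written at least N-fold, sets the dim side at the higher of its own level and the lowest level well above background, and is open to dye bias. No test was possible with 1 array per genotype. Both arrays shared a slide and a scan.

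Named genes are the 10 members, list genes at 2-fold in a treatment ratio (at most 4 a list, otherwise the largest), the first 3 markers of cell type lists, and the 8 genes nearest to Acta2; some are not reported here. The remaining lists (endothelial, lymphocyte, cholangiocyte) had medians of -0.04, 0.13 and -0.23 in the AID transgenic treatment ratio. Striated muscle markers had -0.15. Members and lists were chosen with earlier results of these data known. Alternatives were the background offset, the scanner's signals, the value table, median centring, no or quantile normalization between arrays, the filter, the brightest probe, outlier spots and a 1.5-fold size.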

Additional observations from a re-analysis of the deposited data

Results flagged for a closer look

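Smtn had treatment ratios of opposite sign in the genotypes, 0.30 ± 0.16 on the log2 scale in wild-type and -0.11 ± 0.16 in AID transgenic mice. The difference was not tested, and the AID transgenic value lies within its technical error of 0. Both Smtn probes had this split, 0.41 and 0.18 in wild-type and -0.15 and -0.07 in AID transgenic mice, and with median centring the AID transgenic value was 0.30, on the same side as the wild-type one.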

How the results depend on the processing

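Single values kept their sign under all settings tried for Acta2, Cnn1, Myl9, Actg2, Tagln and Tpm2 in AID transgenic mice, with ranges of -2.21 to -1.29, -3.20 to -1.61, -1.75 to -0.98, -2.45 to -0.98, -0.99 to -0.27 and -2.35 to -1.10. In the untreated comparison Acta2 ranged from 1.26 to 1.56, Cnn1 from 1.24 to 2.19 and Myl9 from 0.89 to 1.14. Counts of the 10 genes moved as follows. In untreated AID transgenic over wild-type liver the reported 3 higher became 5 with the scanner's processed signals, 4 with offset 0 or at 1.5-fold and 2 without normalization between arrays. In the difference the reported 3 lower became 5 with the processed signals and 4 with offset 0 or at 1.5-fold. In the AID transgenic treatment ratio the reported 5 lower became 7 with the processed signals or the value table, 6 with offset 0 or at 1.5-fold and 3 with median centring, which also gave 1 higher in place of 0. In wild-type mice median centring gave 1 higher and 0 lower in place of 0 and 1. At 1.5-fold, 1 gene, Tpm1, was higher in wild-type mice. Tpm1 turned sign with its brightest probe. The cause of these moves was not tested, except that the 1.5-fold size counts smaller values by construction. No paired analysis was possible because each genotype had 1 array. Signal over background limits Myh11, Des and Actg2, whose ratios rest on spots near background, and Cnn1 in the treated AID transgenic liver.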
